A study of Caenorhabditis elegans with 10 samples.

Results

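The genes described here encode subunits of the proteasome, the large protease that degrades ubiquitin-tagged proteins. The set was chosen with earlier results of these data known, and its genes were then picked by name. Protein-coding genes of the deposited table whose symbol begins with pas, pbs, rpt or rpn and a number were taken, which gave 33 of 46536 genes. The 33 comprise 7 pas and 7 pbs genes of the core particle and 6 rpt and 13 rpn genes of the regulatory particle. Ribosome-depleted total RNA was sequenced from germline tumours dissected out of Caenorhabditis elegans. Every worm was of the Bristol strain and carried gld-2(q497) gld-1(q485), mutations under which germ cells overproliferate with or without Notch signalling. In 5 libraries the Notch receptor gene carried the gain-of-function allele glp-1(ar202) (GLP-1 ON), and in 5 it carried the null allele glp-1(q175) (GLP-1 OFF). Synchronised larvae had been kept at 25 °C for 48 h, and germlines were taken from adults on day 1. The controls thus share the gld mutations, and both groups are tumours rather than normal germlines.

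As background, the core particle is a barrel of stacked rings. The outer rings are built from the alpha subunits (pas genes), which form the gate, and the inner rings from the beta subunits (pbs genes), of which some carry the proteolytic sites. The regulatory particle caps the barrel. Its ring of ATPases (rpt genes) unfolds substrates and threads them through the gate, while its other subunits (rpn genes) bind ubiquitin chains, remove them and hold the particle together. In the C. elegans germline the proteasome takes part in the turnover of cell cycle and meiotic regulators. Its subunits are needed in fixed proportions within each particle, so their transcripts are usually compared as a group.

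Library depth was 17.5 to 38.53 M reads in genes. Levels are in CPM, the reads of a gene per 1 M reads in genes. The receptor gene and its known outputs served to check the labels. The 5 GLP-1 ON libraries had 206 to 274 CPM of glp-1, against 69.7 to 101 CPM in the 5 GLP-1 OFF libraries, and the stem cell genes sygl-1 and lst-1, which act downstream of GLP-1, were 16.4 and 2.88 times as abundant in GLP-1 ON, with no overlap between groups. The glp-1 allele itself differs between the groups. The 7 germline markers summed to 1681 to 2419.5 CPM in GLP-1 ON and 1549.8 to 2273 CPM in GLP-1 OFF. The 25 markers of somatic tissues summed to 56.8 to 82.4 CPM in GLP-1 ON and 69.0 to 98.1 CPM in GLP-1 OFF, where 17 averaged under 1 CPM and 0 were absent from every library. The markers of gonadal sheath and somatic gonad within them summed to 23.5 to 31.8 CPM in GLP-1 ON and 29.6 to 41.7 CPM in GLP-1 OFF. The largest means among the 25 were those of the neuronal marker snb-1 (24.9 CPM in GLP-1 ON, 27.5 in GLP-1 OFF) and the sheath marker inx-8 (22.4 and 28.1 CPM). The somatic sums thus rest largely on these genes. Of the 3 sheath markers that could be tested, lim-7 was lower in GLP-1 ON on the deposited scale (log2 difference -0.36, limma adjusted p = 0.0331), and after TMM scaling, which is described below, lim-7, inx-8 and inx-9 were all lower (limma adjusted p = 0.0308, 0.0206 and 0.0374). Their part in the results below was not tested. Genes for ribosomal RNA still took 40.1% to 49.6% of reads in GLP-1 ON and 38.9% to 50.7% in GLP-1 OFF.

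Proteasome subunit transcripts were abundant in both kinds of tumour and differed little between them. On the deposited scale 3 of the 33 genes were higher in GLP-1 ON, namely pas-1, rpt-4 and rpt-6, at 1.2 to 1.25 times their GLP-1 OFF level, and 0 were lower. The test was limma on log2(CPM + 1) with Benjamini-Hochberg adjustment over 6833 tested genes, and an adjusted p under 0.05 made a call. All 33 subunit genes passed the filter for testing. The 3 calls make up 9.09% of the subunit genes, and 6.7% of all tested genes were called higher (458 genes) and 12.4% lower (847 genes). At an unadjusted p under 0.05, 4 subunit genes were higher and 0 lower, a count with no figure for all tested genes beside it. The quasi-likelihood test of edgeR also called 0 subunit genes lower, beside 18.1% of all tested genes. The log2 difference, GLP-1 ON minus GLP-1 OFF, ran from -0.15 to 0.31 over the 33 genes with a median of 0.09, beside a median of -0.05 over all tested genes. It lay above 0 for 29 subunit genes, beside 40.5% of all tested genes. For 2 of the 33 genes the groups were fully apart, both higher in GLP-1 ON, beside 5.01% of all tested genes without overlap and higher and 9.92% without overlap and lower. In bulk libraries such as these, fewer cells of a type and less RNA per cell cannot be told apart.

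**Figure D1:**
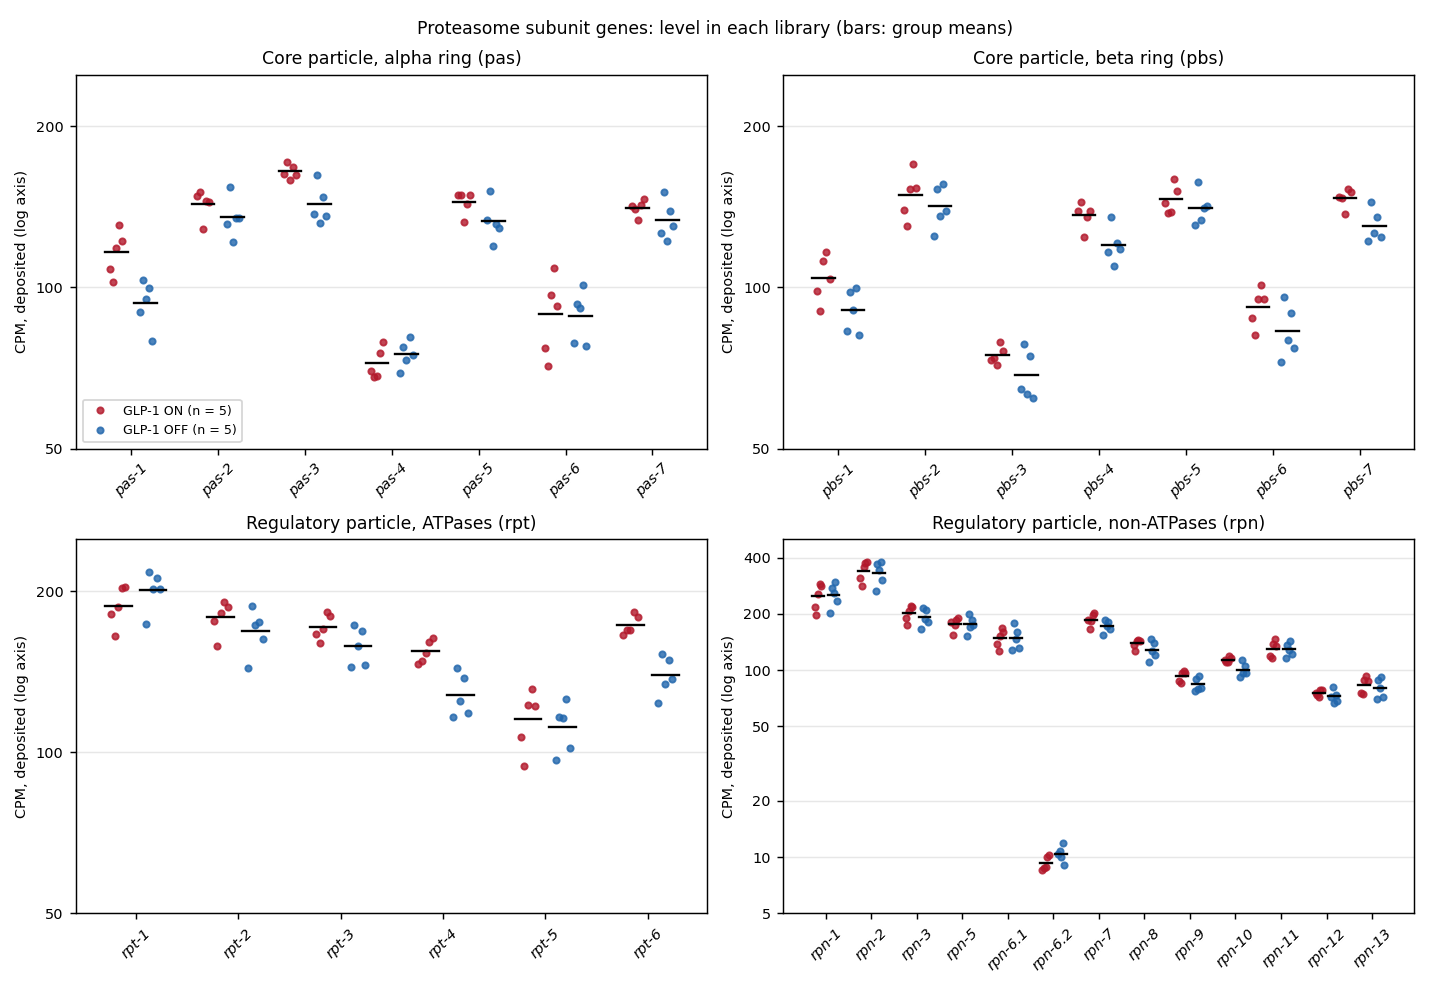
Level of each proteasome subunit gene in each library (CPM as deposited, log axis), with GLP-1 ON libraries in red to the left of GLP-1 OFF libraries in blue (5 each) and bars at the group means. The groups separate fully for rpt-4 and rpt-6, nearly so for pas-1, and overlap for the other genes, while rpn-6.2 lies near 10 CPM, far under the rest.

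The alpha ring gave 1 call of 7. The gene pas-1 (WBGene00003922, chromosome V, 14421566 to 14422618, minus strand) encodes an alpha ring subunit. Its level was 108, 102, 118.6, 131 and 122 CPM in the GLP-1 ON libraries, against 90.1, 103, 95.1, 99.9 and 79.4 CPM in the GLP-1 OFF libraries. All GLP-1 ON libraries but replicate 2 lay above every GLP-1 OFF library, and replicate 2 fell just under GLP-1 OFF replicate 2. The means were 116 ± 11.2 CPM in GLP-1 ON and 93.5 ± 9.30 CPM in GLP-1 OFF (SD, n = 5 each). The log2 difference was 0.31 with a standard error of 0.101 and a 95% interval of 0.10 to 0.52, and the limma adjusted p was 0.0331. The exact permutation test, run over every way of assigning the libraries to the groups, gave a two-sided p of 0.0159. The call was lost when GLP-1 ON replicate 3, 4 or 5 or GLP-1 OFF replicate 3 or 5 was left out, with adjusted p-values between 0.0195 and 0.0957 over the 10 fits.

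The alpha subunit gene with the highest level per length was pas-3 (chromosome I, 5105110 to 5106048, minus strand). It had 163, 172, 158, 168 and 162 CPM in the GLP-1 ON libraries, against 137, 162, 132, 148 and 136 CPM in the GLP-1 OFF libraries. The groups met only at GLP-1 OFF replicate 2, the highest library of its group. Its log2 difference of 0.21 (95% interval 0.02 to 0.40) did not pass limma (adjusted p = 0.124, Benjamini-Hochberg), and the exact permutation test gave p = 0.0238. The other alpha genes without a call were pas-2, pas-5 and pas-7, at log2 differences of 0.09, 0.12 and 0.08, pas-6 at 0.00 and pas-4 at -0.06. The pas-4 level was 72.1 ± 4.90 CPM in GLP-1 ON and 75.2 ± 4.34 CPM in GLP-1 OFF (SD, n = 5 each), and the 95% interval of its difference was -0.25 to 0.13 (limma adjusted p = 0.707).

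The beta ring gave 0 calls of 7 on the deposited scale, with log2 differences between 0.06 and 0.20. The genes pbs-1, pbs-2 and pbs-5 encode the catalytic subunits, which by orthology with yeast carry the caspase-like, trypsin-like and chymotrypsin-like sites. The pbs-5 level was 144, 138, 138, 159.7 and 152 CPM in the GLP-1 ON libraries, against 131, 157, 134, 141 and 142 CPM in the GLP-1 OFF libraries. These groups lay within each other's range for most libraries, and the log2 difference was 0.06 with a 95% interval of -0.14 to 0.25 (limma adjusted p = 0.725). For pbs-2 it was 0.07 with an interval of -0.14 to 0.28, and for pbs-1 it was 0.20 with an interval of -0.01 to 0.41 (limma adjusted p = 0.679 and 0.182).

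Among the beta subunits without a proteolytic site, pbs-4 (chromosome I, 3908747 to 3909701, plus strand) had the highest level per length. Its level was 139, 144, 124, 135 and 139 CPM in the GLP-1 ON libraries, against 116, 136, 109.9, 121 and 118 CPM in the GLP-1 OFF libraries. Only GLP-1 OFF replicate 2 reached into the GLP-1 ON range. The log2 difference was 0.18 with a 95% interval of -0.01 to 0.37 (limma adjusted p = 0.179; exact permutation p = 0.0238). Differences of pbs-3, pbs-6 and pbs-7 were 0.13, 0.15 and 0.17 with limma adjusted p-values of 0.378, 0.320 and 0.190.

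The ATPase ring held the other called genes, 2 of 6. The gene rpt-6 (WBGene00004506, chromosome III, 12370456 to 12372607, plus strand) had 165, 169.6, 169, 183 and 179 CPM in the GLP-1 ON libraries, against 124, 153, 134, 149 and 137 CPM in the GLP-1 OFF libraries. Every GLP-1 ON library lay above every GLP-1 OFF library. The means were 173 ± 7.34 CPM in GLP-1 ON and 139 ± 11.5 CPM in GLP-1 OFF (SD, n = 5 each), with a log2 difference of 0.31, a standard error of 0.091 and a 95% interval of 0.12 to 0.50 (limma adjusted p = 0.0193). The exact permutation p of 0.00794 is the smallest this design allows. The call was lost without GLP-1 ON replicate 4 or 5 or GLP-1 OFF replicate 3, with adjusted p-values of 0.00629 to 0.0574 over the 10 fits.

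The gene rpt-4 (WBGene00004504, chromosome II, 42207 to 46216, minus strand) had 147, 148, 153, 161 and 164 CPM in the GLP-1 ON libraries, against 117, 144, 125, 138 and 118.6 CPM in the GLP-1 OFF libraries. The groups did not overlap, although GLP-1 OFF replicate 2 came close. The means were 155 ± 7.55 CPM in GLP-1 ON and 128 ± 11.9 CPM in GLP-1 OFF (SD, n = 5 each), with a log2 difference of 0.27, a standard error of 0.093 and a 95% interval of 0.08 to 0.46 (limma adjusted p = 0.0473; exact permutation p = 0.00794). This call lay next to the threshold. It was lost in 9 of the 10 fits with a library left out and stayed only without GLP-1 OFF replicate 2, with adjusted p-values of 0.0118 to 0.127. In the annotation used here, rpoa-49 on the opposite strand overlaps 7.05% of the exon bases of rpt-4, and glrx-5 overlaps 1.85% of those of rpt-6, so reads from these stretches are uncertain if strand was not used in counting.

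The ATPase gene with the highest level per length, rpt-1 (chromosome V, 11980534 to 11982397, minus strand), had a difference below 0 on every scale tried, none of them a call. It had 182, 165, 187, 203 and 203 CPM in the GLP-1 ON libraries, against 174, 217, 202, 212 and 202 CPM in the GLP-1 OFF libraries. The groups overlapped widely, with GLP-1 OFF replicates 2 and 4 above all others. The log2 difference was -0.10 with a 95% interval of -0.30 to 0.10 (limma adjusted p = 0.53; exact permutation p = 0.286). The differences of rpt-2, rpt-3 and rpt-5, whose yeast counterparts carry the tails that open the gate of the core, were 0.09, 0.12 and 0.05 and did not pass the test.

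The 13 rpn genes gave 0 calls, with log2 differences from -0.15 to 0.18. The scaffold genes rpn-1 and rpn-2, whose products hold the base of the regulatory particle, had 248 ± 39.97 and 340.4 ± 42.5 CPM in GLP-1 ON, against 253 ± 36.1 and 332 ± 47.3 CPM in GLP-1 OFF (SD, n = 5 each). Their differences were -0.03 and 0.04, and that of rpn-1 changed sign to 0.01 after TMM scaling, described below. Of the ubiquitin receptor genes, rpn-10, which also acts in sex determination of the hermaphrodite germline, had 114 ± 3.94 CPM in GLP-1 ON and 101 ± 8.54 CPM in GLP-1 OFF. Its log2 difference was 0.18 (95% interval -0.01 to 0.37, limma adjusted p = 0.182). For rpn-13, whose product also binds the deubiquitinase UBH-4, it was 0.06 (adjusted p = 0.763).

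The lid of the regulatory particle removes ubiquitin from substrates, an activity of RPN-11, which pairs with RPN-8. The rpn-11 level was 130.4 ± 12.9 CPM in GLP-1 ON and 129 ± 10.99 CPM in GLP-1 OFF (SD, n = 5 each), a log2 difference of 0.01. The rpn gene with the highest level per length was rpn-8 (chromosome I, 4175319 to 4177271, plus strand). It had 136, 127, 144, 145 and 144 CPM in the GLP-1 ON libraries, against 111, 146, 127, 139.9 and 119.8 CPM in the GLP-1 OFF libraries. GLP-1 OFF replicate 2 was the highest of all 10 libraries, and the groups overlapped. The log2 difference was 0.12 with an interval of -0.09 to 0.32 (limma adjusted p = 0.449; exact permutation p = 0.19). Across the 8 lid genes of the set other than rpn-6.2 the differences ran from 0.00 to 0.15, with rpn-9 at the upper end. The lid gene dss-1, whose name falls outside the rule for the set, was at 0.03. That of rpn-6.2, described next, was -0.15.

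The paralogs rpn-6.1 and rpn-6.2 both encode a lid subunit, and rpn-6.1 is known for raising proteasome activity in whole worms that lack a germline. The rpn-6.1 level was 139, 126, 152, 168 and 161 CPM in the GLP-1 ON libraries, against 128, 178, 147, 161 and 132 CPM in the GLP-1 OFF libraries. The groups covered the same range, and the difference was 0.00 with a 95% interval of -0.23 to 0.23 (limma adjusted p = 0.992). The rpn-6.2 level was 8.58, 8.73, 8.88, 9.997 and 10.3 CPM in the GLP-1 ON libraries, against 10.4, 10.8, 10.04, 11.9 and 9.04 CPM in the GLP-1 OFF libraries. Here 4 GLP-1 OFF libraries were level with or above the upper GLP-1 ON libraries, and GLP-1 OFF replicate 5 lay among the lower ones. The log2 difference was -0.15 with an interval of -0.35 to 0.05 (limma adjusted p = 0.304; exact permutation p = 0.0635). It rests on at most 396 reads per library, against at least 1209 for every other subunit gene, and reads that fit both paralogs may have been divided between them.

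The same libraries tended to be high or low across subunits. GLP-1 ON replicate 2 was the lowest of its group for 22 of the 33 genes and replicate 4 the highest for 20. GLP-1 OFF replicate 1 was the lowest of its group for 22 genes and replicate 2 the highest for 22. The share of reads in rRNA genes was 49.6% and 40.1% in these GLP-1 ON libraries and 50.7% and 38.9% in these GLP-1 OFF libraries, so the library with the largest rRNA share in each group had the low values and that with the smallest share the high ones. Since CPM are shares of all reads in genes, rRNA reads included, the comparison was repeated on scales that treat them otherwise. TMM scaling, one of these, gives each library a factor under which most genes show no difference.

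After TMM scaling 16 of the 33 subunit genes were called higher in GLP-1 ON and 0 lower, which is 48.5% of them, while 16.5% of all tested genes were called higher (1129 genes) and 18.2% lower (1247 genes). The called genes were pas-1 and pas-3 of the alpha ring, pbs-1, pbs-3, pbs-4, pbs-6 and pbs-7 of the beta ring, rpt-2, rpt-3, rpt-4 and rpt-6 of the ATPase ring, and rpn-3, rpn-7, rpn-8, rpn-9 and rpn-10. Their log2 differences ran from 0.12 to 0.36, or ratios of 1.09 to 1.28, with limma adjusted p-values of 6.4e-05 to 0.049. The groups did not overlap for 13 of them, namely all but pbs-4, rpt-2 and rpn-3, and 11.6% of all tested genes were higher in GLP-1 ON without overlap on this scale. The sheath markers lim-7, inx-8 and inx-9 were called lower on the same scale, and their part in these calls was not tested. The median over the 33 genes was 0.13, beside -0.01 over all tested genes, and 30 lay above 0, beside 48.3% of all tested genes. The 3 below 0 were pas-4, rpt-1 and rpn-6.2, which were also below 0 on the deposited scale.

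Over the 33 genes the median spread between replicates was smaller on this scale, though not in every class. The median coefficient of variation of a subunit gene was 4.68% among GLP-1 ON and 5.1% among GLP-1 OFF libraries after TMM scaling. On the deposited scale it was 7.22% and 8.99%. Among GLP-1 ON libraries it was 6.2% against 6.19% for core genes, and for pas genes it rose from 6.01% to 8.01%. Among GLP-1 OFF libraries it fell from 8.76% to 5.77% for core and from 8.74% to 6.63% for pas genes. The median standard error of the log2 difference over the 33 genes was 0.05 against 0.097. For pbs-6 the TMM-scaled level was 93.3 ± 2.35 CPM in GLP-1 ON and 81.2 ± 1.32 CPM in GLP-1 OFF (SD, n = 5 each), a log2 difference of 0.20 (limma adjusted p = 0.00146). The deposited levels of the same gene were 92.1 ± 7.65 CPM in GLP-1 ON and 82.9 ± 9.57 CPM in GLP-1 OFF, a difference of 0.15 that did not pass. Among the catalytic subunits pbs-1 was called after TMM scaling (0.24, limma adjusted p = 0.00132), and pbs-2 and pbs-5 were not (0.11 and 0.10, adjusted p = 0.0785 and 0.157), whereas all 4 other beta genes were. Whether these beta genes differ from each other was not tested.

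**Figure D2:**
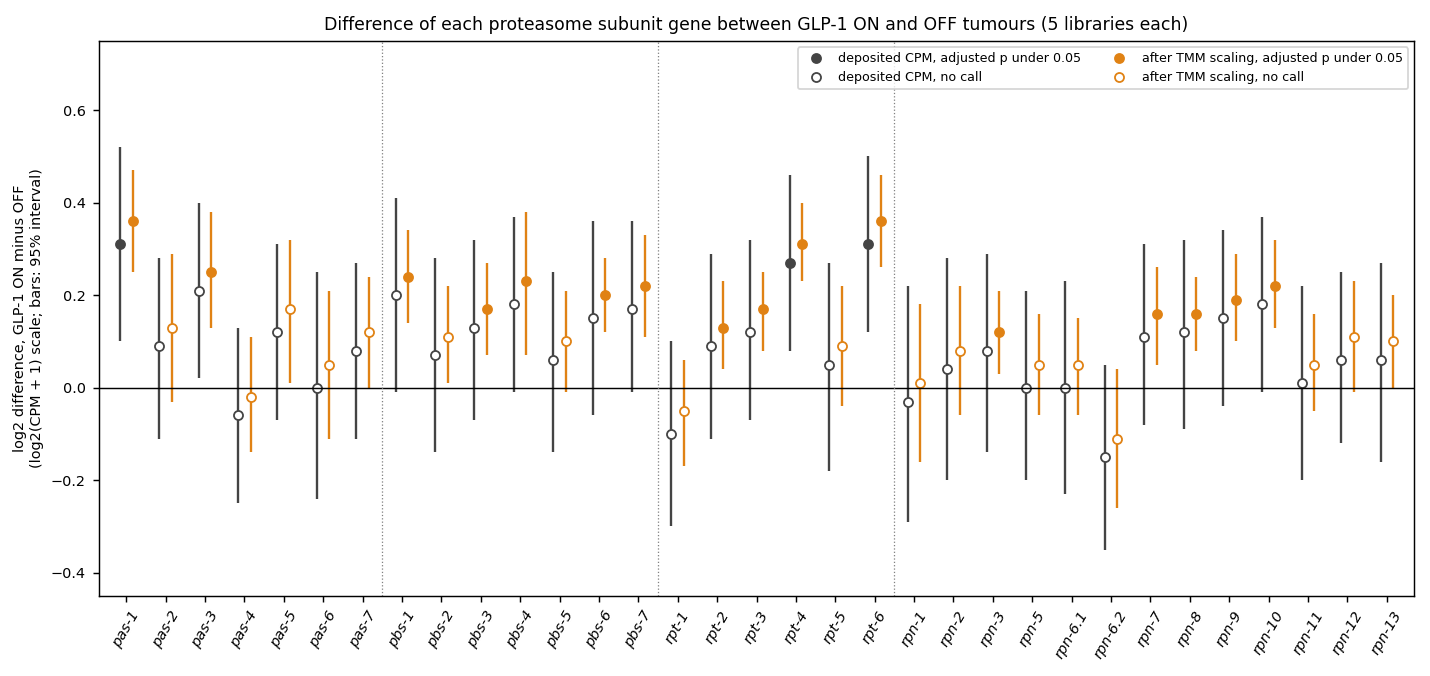
Log2 difference of each subunit gene, GLP-1 ON minus GLP-1 OFF, with its 95% interval from limma (5 libraries in each group), in grey as deposited and in orange after TMM scaling. Filled points are calls at an adjusted p under 0.05, of which there are 3 in grey and 16 in orange, all above 0.

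The count of calls thus depended on the scale. Dividing by reads outside rRNA genes gave 10 calls (11.4% of all tested genes were higher and 18.6% lower by that test), and edgeR's quasi-likelihood test on the reads recovered from the CPM gave 15 (16.8% of all tested genes higher and 18.1% lower), in both cases with 0 subunit genes lower. The genes pas-1, rpt-4 and rpt-6 were called on each of these scales. After TMM scaling they were called whichever library was left out (10 fits), with adjusted p-values of at most 0.000582, 0.000319 and 0.000337. On the deposited scale the count of called subunit genes was 0 without GLP-1 ON replicate 4, GLP-1 ON replicate 5 or GLP-1 OFF replicate 3. In these fits 368, 366 and 346 of all tested genes were called higher, against 458 with every library. The subunit count was 1 without GLP-1 ON replicate 3 or GLP-1 OFF replicate 5 (351 and 360 of all tested genes higher). It was 7 without GLP-1 OFF replicate 2 (628 of all tested genes higher). The calls among all tested genes thus moved as well.

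Summed over all 33 genes the deposited level was 4465, 4249, 4641, 5005 and 4900 CPM in the GLP-1 ON libraries, against 3899, 4836, 4269, 4691 and 4134 CPM in the GLP-1 OFF libraries. The groups overlapped, since GLP-1 OFF replicates 2 and 4 lay above several GLP-1 ON libraries. As a share of reads outside rRNA genes the sum was 0.835%, 0.843%, 0.822%, 0.835% and 0.857% in GLP-1 ON, against 0.791%, 0.791%, 0.724%, 0.798% and 0.796% in GLP-1 OFF. On that scale every GLP-1 ON library lay above every GLP-1 OFF library, with means of 0.838% ± 0.013 in GLP-1 ON and 0.780% ± 0.0314 in GLP-1 OFF (SD, n = 5 each), a ratio of 1.07. No test was made on the sums.

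**Figure D3:**
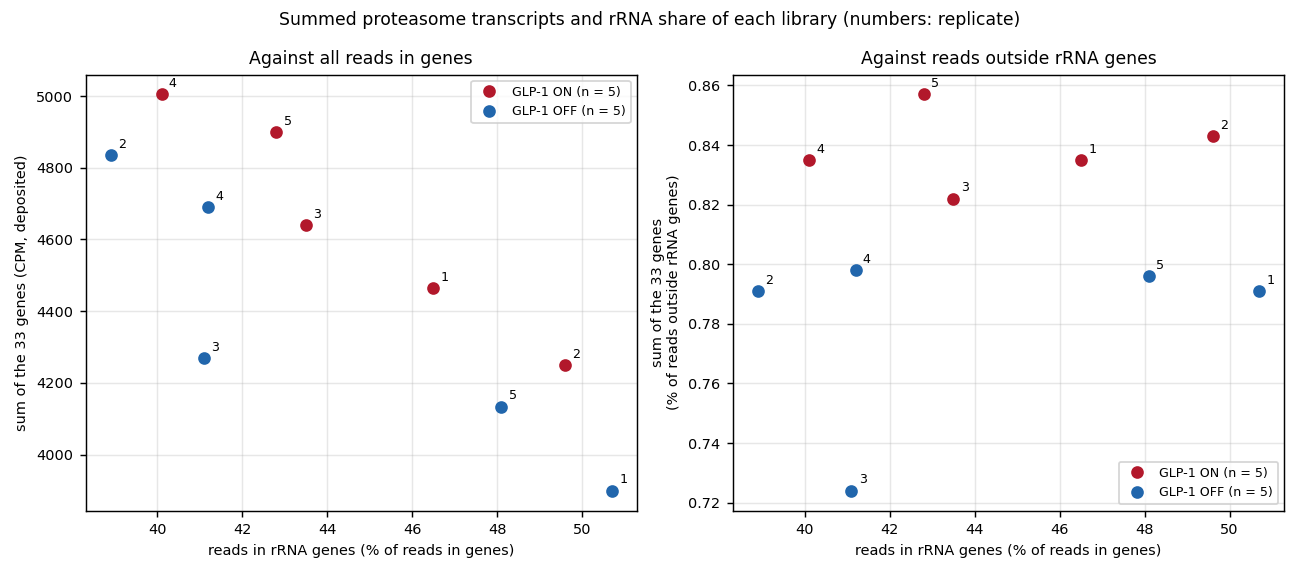
Sum of the 33 subunit genes in each library against the share of its reads in rRNA genes (%), with the sum as deposited CPM at left and as a percentage of reads outside rRNA genes at right. GLP-1 ON libraries are red and GLP-1 OFF libraries blue, with replicate numbers beside them, and the groups overlap in the left panel (3899 to 5005 CPM) but not in the right one (0.724% to 0.857%).

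The core and regulatory particles were compared by their sums. The core genes summed to 1687, 1658, 1668, 1828 and 1765 CPM in the GLP-1 ON libraries, against 1480, 1754, 1494, 1651 and 1505 CPM in the GLP-1 OFF libraries. Only GLP-1 OFF replicate 2 reached into the GLP-1 ON range, and the ratio of the means was 1.09. The regulatory genes summed to 2777, 2591, 2973, 3177 and 3136 CPM in GLP-1 ON, against 2419, 3082, 2775, 3039 and 2629 CPM in GLP-1 OFF, a ratio of 1.05 with wide overlap. The core sum divided by the regulatory sum was 0.589 ± 0.0339 in GLP-1 ON and 0.567 ± 0.0293 in GLP-1 OFF (SD, n = 5 each), which is within the spread of the libraries. After TMM scaling the ratios of the means were 1.13 for the core and 1.08 for the regulatory particle.

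The sample numbers in the labels fall into 3 sets of neighbours, and the subunit differences were not alike across them. Set 56 to 58 holds 1 GLP-1 ON and 2 GLP-1 OFF libraries, set 85 to 88 holds 1 and 2, and set 127 to 130 holds 3 and 1. On the deposited scale the median log2 difference of the 33 genes was 0.04 in the first set, -0.07 in the second and 0.25 in the third, with 22, 13 and 31 genes above 0. After TMM scaling the medians were 0.17, 0.13 and 0.11 with 30, 23 and 25 genes above 0. On that scale 18 of the 33 genes were above 0 in all 3 sets, the 16 called genes among them. Those 16 were called from the same libraries, so their shared sign is no separate test of the calls. The counts per set have no figure for all tested genes beside them. For pas-1 the deposited differences within the sets were 0.16, 0.07 and 0.63, for rpt-4 they were 0.18, 0.18 and 0.42, and for rpt-6 they were 0.26, 0.26 and 0.36. With the set as a term in the fit, 0 subunit genes were called on the deposited scale. Of all 6833 tested genes, 356 were called higher and 635 lower in that fit. The limma adjusted p was 0.116 for pas-1, 0.152 for rpt-4 and 0.0965 for rpt-6. The fitted log2 differences with that term were 0.30, 0.27 and 0.30, close to the 0.31, 0.27 and 0.31 without it. The labels do not say what the sets stand for.

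The particles stood furthest apart in the set 85 to 88. There the median difference was 0.08 for the core and -0.18 for the regulatory genes, while in the set 127 to 130 it was 0.22 and 0.25. After TMM scaling the medians in the set 85 to 88 were 0.28 and 0.01, and in the set 127 to 130 they were 0.08 and 0.12. Single genes did not all follow these medians, since on the TMM scale in the set 85 to 88 the core genes pas-3 and pbs-4 stood at 0.49 and 0.52 but pas-6 at -0.23, and the regulatory genes rpn-1 and rpn-2 stood at -0.29 and -0.15 but rpt-6 and rpt-4 at 0.45 and 0.37. Values of that set compare 1 GLP-1 ON library with 2 GLP-1 OFF libraries, and none was tested.

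Levels of different subunits were compared per kilobase of exon, since longer transcripts collect more reads. The median over the 33 genes and 10 libraries was 106 CPM per kb, against 22.1 CPM per kb over tested genes with a known length. Apart from rpn-6.2 at 6.34, the genes lay between 55.0 CPM per kb for rpn-13 and 172 for pas-3, a range of 3.13-fold. That places 25 subunit genes at or above the 90th percentile of tested genes. Core genes had a median of 138 CPM per kb, from 83.4 to 172, and regulatory genes one of 96.8. By class the medians were 140.1 for pas, 136 for pbs, 114 for rpt and 90.6 for rpn genes.

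The 5 highest levels per kb were all of core genes. They were pas-3 at 172, pas-2 at 166, pas-5 at 162, pbs-4 at 160.1 and pbs-7 at 158 CPM per kb, and neighbours in this order differed by less than the SD over GLP-1 OFF libraries. The gate-forming and inner ring genes did not all stand high, since pas-4, pbs-3 and pas-6 were at 83.4, 84.5 and 89.7 CPM per kb. In the regulatory particle rpt-1 led at 129 CPM per kb and rpn-8 led the rpn genes at 109. The lid genes of the set other than rpn-6.2, which meet in equal numbers in the particle, ran from 66.8 for rpn-9 to 109. The lid gene dss-1, outside the set by its name, was at 119.6 CPM per kb. Between the paralogs, rpn-6.1 was 15.2 times as abundant per kb as rpn-6.2 in GLP-1 ON and 13.5 times in GLP-1 OFF.

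**Figure D4:**
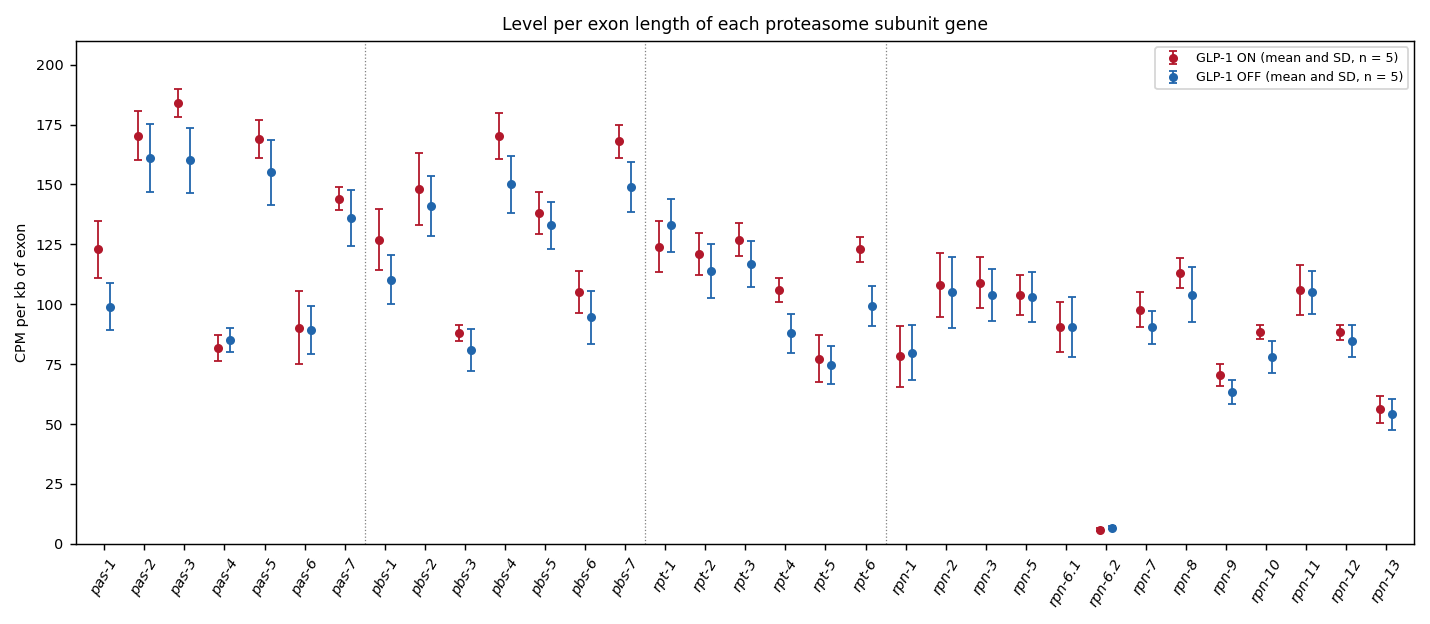
Mean level of each subunit gene per kilobase of exon (CPM per kb) with its SD over 5 libraries, GLP-1 ON in red to the left of GLP-1 OFF in blue. The pas genes (first block) reach 184 CPM per kb in GLP-1 ON and 161 in GLP-1 OFF, while the rpn genes (last block) stay at or under 113 in GLP-1 ON and 105 in GLP-1 OFF.

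The order of levels was alike in both tumours. The gene pas-3 ranked 1 in GLP-1 ON and 2 in GLP-1 OFF, and pas-2 ranked 2 and 1, while rpn-6.2, rpn-13 and rpn-9 ranked last in both. The 3 called genes had the largest shifts of rank, as pas-1 ranked 12 in GLP-1 ON and 19 in GLP-1 OFF, rpt-6 ranked 12 and 18, and rpt-4 ranked 18 and 24. These ranks come from the same values as the calls and are no separate result. The 33 genes lie on chromosomes I (10), II (7), III (8), IV (3) and V (5), with 0 on X, which holds 3.09% of all tested genes. Their exons sum to 801 to 3171 bases. Exons of another gene overlap those of 11, and for rpn-7, rpn-9, pbs-4, pbs-7 and rpt-4 the overlap exceeds 5% of exon bases, up to 20.66% for rpn-7. All of these named genes were called higher after TMM scaling. The overlapping gene lies on the same strand for pbs-7 and on the opposite strand for the others. The part of reads from these stretches in the calls was not tested.

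Genes that work with the proteasome were described from a separate list of 24, all of which passed the filter. In C. elegans an isoform of the transcription factor SKN-1 drives proteasome genes after its release from the endoplasmic reticulum by the degradation factors SEL-1 and SEL-11, editing by the glycanase PNG-1 and cleavage by the protease DDI-1. Other genes of the list encode ubiquitin, its activating enzyme, the CDC-48 segregase, shuttle proteins, deubiquitinases, assembly factors and the lid subunit DSS-1. Of the 24, 1 was higher in GLP-1 ON (ubq-2), 1 was lower (png-1) and 22 had no call, with a median log2 difference of 0.00. Each call is 4.17% of the list, beside the 6.7% higher and 12.4% lower of all tested genes. After TMM scaling 4 were higher (ubq-2, rad-23, usp-14 and psme-3) and 2 lower (png-1 and ubql-1), where the 16.7% higher stand beside 16.5% of all tested genes and the lower share of all tested genes was 18.2%.

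Transcripts of png-1 fell in GLP-1 ON. The level was 40.6, 41.0, 41.1, 42.0 and 37.8 CPM in the GLP-1 ON libraries, against 47.5, 58.6, 50.9, 57.8 and 49.2 CPM in the GLP-1 OFF libraries. Every GLP-1 ON library lay under every GLP-1 OFF library. The means were 40.5 ± 1.60 CPM in GLP-1 ON and 52.8 ± 5.09 CPM in GLP-1 OFF (SD, n = 5 each), with a log2 difference of -0.37 and a 95% interval of -0.56 to -0.18 (limma adjusted p = 0.00657; exact permutation p = 0.00794). The difference was -0.37, -0.40 and -0.28 within the sets of sample numbers, and the call held whichever library was left out (10 fits, adjusted p 0.00334 to 0.0264). Other genes of the same SKN-1 pathway had no call. The skn-1 level, which counts all isoforms together, was 33.9 ± 7.04 CPM in GLP-1 ON and 34.2 ± 5.36 CPM in GLP-1 OFF (limma adjusted p = 0.924), and the differences of ddi-1, sel-1 and sel-11 were -0.05, -0.14 and 0.00.

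Of the genes that supply ubiquitin, ubq-2 rose. It encodes ubiquitin fused to a ribosomal protein. Its level was 869, 841, 871, 900.4 and 880.5 CPM in the GLP-1 ON libraries, against 699, 792, 699, 737 and 665 CPM in the GLP-1 OFF libraries. The groups did not overlap. The log2 difference was 0.28 with a 95% interval of 0.09 to 0.47 (limma adjusted p = 0.0325; exact permutation p = 0.00794), and 0.22, 0.23 and 0.41 within the sets of sample numbers. The call was lost without GLP-1 ON replicate 1, 3, 4 or 5 or GLP-1 OFF replicate 3, 4 or 5, with adjusted p-values of 0.00738 to 0.0864, and with the set of sample numbers as a term (limma adjusted p = 0.0919). The polyubiquitin gene ubq-1 had 485 ± 61.9 CPM in GLP-1 ON and 542 ± 86.9 CPM in GLP-1 OFF (adjusted p = 0.425), and the gene of the activating enzyme, uba-1, had 328 ± 50.2 and 329 ± 52.8 CPM (adjusted p = 1.00). Reads of ubq-1 and ubq-2 may be divided between them, since both hold ubiquitin repeats or units.

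Among the remaining genes cdc-48.2, 1 of 2 close paralogs for the segregase that extracts proteins for degradation, had 429 ± 58.0 CPM in GLP-1 ON and 408 ± 61.8 CPM in GLP-1 OFF (SD, n = 5 each; limma adjusted p = 0.724), with reads that cdc-48.1 may share. Genes without a call on the deposited scale that were called after TMM scaling were the shuttle gene rad-23 (0.27, limma adjusted p = 0.00279), the proteasome-bound deubiquitinase gene usp-14 (0.15, adjusted p = 0.0315), psme-3, which encodes an alternative activator of the core (0.28, adjusted p = 0.0166), and the shuttle gene ubql-1 (-0.26, adjusted p = 0.0148). On the deposited scale these were 0.23, 0.10, 0.24 and -0.30, with adjusted p-values of 0.156, 0.507, 0.0883 and 0.0933.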

How the data were processed

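The authors deposited a table of values per gene, labelled as CPM, for 10 libraries, recorded here as a signal because 462 rows repeat a gene and the columns sum to more than CPM may. Per the submitters' processing notes, STAR 2.0.4b, featureCounts 1.4.5, edgeR and limma were used, and the genome build, annotation, strand setting and handling of shared reads were not given in the sources used here. Repeated rows were dropped (46998 rows, 46536 genes). Whole reads, recovered from the CPM steps, came out whole within 0.01 read for 100% of values.

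Differences were tested with limma 3.58.1 (R 4.3.3), using trended variances of unscaled log2(CPM + 1) values, for the 6833 genes that reached 1 CPM in 5 or more libraries, with Benjamini-Hochberg adjustment. Log2 differences are on the log2(CPM + 1) scale. Permutation tests are exact and two-sided over all assignments of the libraries. Alternatives were pseudocounts, filters, scalings, edgeR 4.0.16, DESeq2 1.42.0, terms for replicate or set of sample numbers, and fits without each library. The procedure was tested on simulated data. Apart from depth, those data held no shifts shared by the genes of a library, so that test cannot judge between the scales.

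Groups came from the sample titles, and the replicates are biological per the design text. Replicates differed by at least 16.1 times the chi-square expected from counting, so none were counted as 1 sample. Depth was 17.5 to 38.53 M reads, and reads without molecular identifiers are not independent molecules. Coordinates and exon lengths come from Ensembl release 115 (WBcel235), to which all 33 subunit genes matched.

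Members and gene lists were chosen with earlier results of these data known. Named in full are called members, the member with the highest CPM per kb in each class, and rpn-6.1 and rpn-6.2, and from the associated list the called genes and the 3 uncalled ones with the highest CPM. Other genes were named after their values were seen.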

Additional observations from a re-analysis of the deposited data

Results flagged for a closer look

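Among the subunit, associated and label-check genes and the particle sums, 126 groups of 5 libraries were examined for a library that stood apart from the other 4 of its group, and 2 did, both in associated genes. Chance flags about 1 group in 20. For aip-1, a proteasome-binding factor induced by arsenic, GLP-1 ON replicate 1 was at 13.2 CPM and the other GLP-1 ON libraries at 10.6 to 11.2 CPM. For ubh-4, the gene of a proteasome-bound deubiquitinase, GLP-1 OFF replicate 2 was at 125 CPM and the other GLP-1 OFF libraries at 97.4 to 103 CPM. None of the 33 subunit genes was flagged.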

How the results depend on the processing

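The subunit count of 3 higher became 16 with TMM scaling, 16 with median-ratio scaling, 10 with quantile normalisation, 10 with the total without rRNA genes, 15 with edgeR, 17 with DESeq2, 1 with no filter and 0 with the set of sample numbers as a term. It was 0 to 7 without each library in turn, and 0 were lower in any of these. The associated counts of 1 higher and 1 lower became 4 and 2 with TMM scaling, 5 and 2 with median-ratio scaling, 4 and 2 with quantile normalisation, 3 and 2 without rRNA genes, 4 and 2 with edgeR, and 6 and 2 with DESeq2. The higher count was 0 with no filter, with the set term and with the replicate block, and leaving out libraries gave 0 to 2 higher and 1 to 2 lower. For all genes the 458 higher became 221 with the filter at 5 CPM, 1129 with TMM scaling, 1219 with median-ratio scaling, 1248 with quantile normalisation, 780 without rRNA genes (1274 lower, against 847), 1145 with edgeR and 1323 with DESeq2. Leaving out libraries gave 346 to 628 higher and 620 to 1060 lower.

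With the replicate number as a block, 2 subunit genes were called, and the calls of rpt-4 (limma adjusted p = 0.069) and ubq-2 (0.0523) were lost. Of all tested genes 517 were higher and 1028 lower in that fit, against 458 and 847 without the block. Deviations of same-numbered libraries correlated at 0.243, -0.024, 0.235, 0.461 and 0.173, so the numbers were not taken to pair the libraries, and not every library correlated best with its own number. TMM scaling with the replicate block, chosen after seeing the data, gave 19 subunit genes higher, 5 associated genes higher and 3 lower, and 1424 genes higher and 1518 lower in all. TMM scaling without each library in turn, also chosen after seeing the data, gave 12 to 18 subunit genes, 3 to 5 associated genes higher and 2 to 3 lower, and 971 to 1232 genes higher and 1038 to 1174 lower in all.

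Signs of uncalled genes near 0 changed. With the set term the log2 difference was -0.06 for pas-6, 0.00 for rpt-5, -0.02 for rpn-2, and -0.03 for rpn-5, rpn-6.1 and rpn-11. For rpn-1 it was 0.01 with TMM scaling, 0.02 with median-ratio scaling, 0.01 with edgeR and 0.03 with DESeq2, and for uba-1 0.04, 0.06, 0.04 and 0.06, with 0.00 after quantile normalisation and 0.01 without rRNA genes. Without each library in turn the range was -0.07 to 0.08 for pas-6, 0.00 to 0.12 for rpt-5, -0.11 to 0.05 for rpn-1, -0.04 to 0.10 for rpn-2, -0.05 to 0.05 for rpn-5, -0.05 to 0.07 for rpn-6.1, -0.03 to 0.05 for rpn-11, -0.01 to 0.14 for cdc-48.2 and -0.09 to 0.08 for uba-1. Pseudocounts of 0.25 and 5 CPM left the 3 calls in place, but changed filters did not. With the filter at 5 CPM, 2 subunit genes were called and rpt-4 was lost (limma adjusted p = 0.0644), beside 221 of 5380 tested genes higher. With no filter 1 was called, and pas-1 and rpt-4 were lost (limma adjusted p = 0.0723 and 0.0843), beside 529 of 21677 genes higher. The cause of these shifts was not tested. On the deposited scale, where the median standard error was 0.097, the smallest called subunit difference was 0.27 (rpt-4), and the 0.21 of pas-3 was not called.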
